A study of Mus musculus with 12 samples.

Results

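The platelet-derived growth factor (PDGF) system and its relative Kit were followed in ATAC-seq data through the peaks lying in or near 7 genes. The genes are those of the 4 PDGF ligands (Pdgfa, Pdgfb, Pdgfc and Pdgfd), of the receptors Pdgfra and Pdgfrb, and Kit. A peak was counted for a gene where it overlapped the GENCODE M21 gene body extended by 20 kb on both sides. This gave 66 of the 91354 peaks in the set called from the BGI samples, with 12 for Pdgfa, 6 for Pdgfb, 11 for Pdgfc, 4 for Pdgfd, 13 for Pdgfra, 13 for Pdgfrb and 7 for Kit. In the set called from the Illumina samples it also gave 66 peaks, of 87027, with 14, 6, 12, 3, 11, 14 and 6 in the same order. All 66 peaks of either set passed the filter on low counts. Of the BGI peaks, 21 reached within 1 kb of a transcription start of the gene (called promoter peaks here), 19 in introns, 3 in exons, 16 upstream and 7 downstream.

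PDGF ligands are secreted dimers that bind receptor tyrosine kinases on the cell surface. The alpha receptor binds the A, B and C chains, and the beta receptor the B and D chains. PDGF-C and PDGF-D are released as latent proteins and become active when a protease removes their CUB domain. Both receptors are known from mesenchymal cells such as fibroblasts, and the beta receptor also from the mural cells of blood vessels. Kit, the receptor for stem cell factor, belongs to the same class of receptors, is the neighbour of Pdgfra on mouse chromosome 5, and is known from germ cells, melanocytes, mast cells and blood stem cells.

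Omni-ATAC-seq marks open chromatin through the insertion of sequencing adapters by Tn5 transposase. The libraries came from cultured mouse embryonic fibroblasts (MEFs), sorted as THY1 positive, and from embryonic stem cells of the mouse (mESCs), sorted for SSEA1 and EPCAM and against THY1. Both cell types had a C57/Bl6 background, no treatment was named in the labels, and the age and sex of the embryos behind the cells were not given. Each cell type had 3 libraries (MEF 1, 2 and 4, mESC 1, 3 and 5). All 6 were read both by an Illumina HiSeqX10 and by a BGI DNBSEQ-G400, so that 12 samples formed 4 groups of 3. The 6 BGI samples held 15860985 to 21662775 reads in the BGI peak set, of which 8820 to 14238 lay in the 66 peaks. Promoter peaks of 5 of 5 MEF markers, Col1a1 and the sorting marker Thy1 among them, were lower in mESCs, and those of 5 of 5 mESC markers, Nanog and the sorting marker Epcam among them, were higher.

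The following stretches, 300 bases each from the centre of a peak, are the distal sites with the lowest p-values for 5 of the genes, and are shown as the sequence at sites that differed between the cell types. For Pdgfb only the site lower in mESCs is printed, and the one higher in mESCs was left out. The stretches were chosen by p and not by size, and larger differences lie elsewhere in Pdgfc, Pdgfd and Pdgfra. In Pdgfra, an intronic peak 8264 bp from the start had a log2 fold change (mESC minus MEF) of -2.515 on BGI and -3.27 on Illumina. The peak of the Pdgfra stretch lower in mESCs had -2.513 and -2.19. All stretches were read from the plus strand of GRCm38 (mm10). Capitals mark the letters of 10 short motifs, searched on both strands. TGANTCA was searched as the motif of the AP-1 factors, which are dimers of Fos and Jun proteins. For the TEAD factors, the partners of YAP, the letters were GGAATG. The RUNX factors were given TGTGGT as their motif. Members of the C/EBP family were searched through the letters TTGCNNAA. The octamer motif ATGCAAAT stood for the OCT factors, to which the pluripotency factor Oct4 belongs. Their common partners, the SOX factors, were searched with ACAANGG. The orphan nuclear receptors of the ESRR family had the letters AAGGTCA. The zinc finger factors were divided into KLF factors, with GGGNGTGG for their motif, and SP factors, searched as GGGCGG. The GATA factors had AGATAA. A match is a description of the letters and shows no binding. The stretches come from a Kit intron at chr5:75600054-75600353 (higher in mESCs) and at chr5:75633326-75633625 (lower), from upstream of Pdgfra at chr5:75137540-75137839 (higher) and chr5:75150674-75150973 (lower), from upstream of Pdgfc at chr3:81021806-81022105 (higher) and chr3:81030367-81030666 (lower), from upstream of Pdgfb at chr15:80024355-80024654 (lower) and from a Pdgfd intron at chr9:6277592-6277891 (lower). None overlaps an annotated UTR.
Kit, higher in mESCs: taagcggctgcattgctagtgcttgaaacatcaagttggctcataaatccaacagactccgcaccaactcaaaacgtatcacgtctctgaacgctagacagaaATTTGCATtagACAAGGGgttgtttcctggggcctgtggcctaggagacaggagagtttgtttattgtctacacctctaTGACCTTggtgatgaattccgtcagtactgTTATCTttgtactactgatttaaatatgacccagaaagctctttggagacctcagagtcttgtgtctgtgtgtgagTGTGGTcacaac
Kit, lower in mESCs: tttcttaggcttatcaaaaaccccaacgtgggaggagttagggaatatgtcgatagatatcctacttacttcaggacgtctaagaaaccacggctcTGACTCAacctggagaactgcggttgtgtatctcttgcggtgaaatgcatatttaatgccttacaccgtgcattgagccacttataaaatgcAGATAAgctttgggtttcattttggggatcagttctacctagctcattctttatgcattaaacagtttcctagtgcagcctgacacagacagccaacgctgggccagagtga
Pdgfra, higher in mESCs: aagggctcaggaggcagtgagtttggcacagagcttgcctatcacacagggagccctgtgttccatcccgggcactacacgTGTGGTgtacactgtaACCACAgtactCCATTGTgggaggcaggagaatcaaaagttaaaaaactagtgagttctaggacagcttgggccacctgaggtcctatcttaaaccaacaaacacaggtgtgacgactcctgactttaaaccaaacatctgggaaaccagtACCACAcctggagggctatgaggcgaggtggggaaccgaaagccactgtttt
Pdgfra, lower in mESCs: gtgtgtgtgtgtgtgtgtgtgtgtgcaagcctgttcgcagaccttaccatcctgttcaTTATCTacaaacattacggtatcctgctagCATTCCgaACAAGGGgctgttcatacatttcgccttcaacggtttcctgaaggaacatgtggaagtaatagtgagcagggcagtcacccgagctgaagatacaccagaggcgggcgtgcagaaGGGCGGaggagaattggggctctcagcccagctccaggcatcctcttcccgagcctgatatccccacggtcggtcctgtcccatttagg
Pdgfc, higher in mESCs: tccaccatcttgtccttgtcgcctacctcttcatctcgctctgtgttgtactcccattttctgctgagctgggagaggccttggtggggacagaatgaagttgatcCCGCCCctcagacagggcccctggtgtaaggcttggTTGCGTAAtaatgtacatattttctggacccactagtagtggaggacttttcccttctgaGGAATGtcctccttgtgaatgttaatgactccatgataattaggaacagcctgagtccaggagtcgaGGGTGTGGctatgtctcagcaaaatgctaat
Pdgfc, lower in mESCs: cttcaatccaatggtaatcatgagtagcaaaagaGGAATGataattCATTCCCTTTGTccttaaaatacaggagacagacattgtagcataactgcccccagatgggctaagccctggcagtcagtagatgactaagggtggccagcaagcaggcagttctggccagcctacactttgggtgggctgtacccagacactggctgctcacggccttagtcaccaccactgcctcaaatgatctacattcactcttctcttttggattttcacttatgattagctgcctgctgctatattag
Pdgfb, lower in mESCs: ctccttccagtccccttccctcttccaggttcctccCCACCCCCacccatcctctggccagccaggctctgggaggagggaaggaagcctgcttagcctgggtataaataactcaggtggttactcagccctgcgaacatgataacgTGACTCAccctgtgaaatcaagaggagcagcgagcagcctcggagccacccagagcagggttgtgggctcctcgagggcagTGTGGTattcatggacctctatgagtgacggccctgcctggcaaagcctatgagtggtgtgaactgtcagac
Pdgfd, lower in mESCs: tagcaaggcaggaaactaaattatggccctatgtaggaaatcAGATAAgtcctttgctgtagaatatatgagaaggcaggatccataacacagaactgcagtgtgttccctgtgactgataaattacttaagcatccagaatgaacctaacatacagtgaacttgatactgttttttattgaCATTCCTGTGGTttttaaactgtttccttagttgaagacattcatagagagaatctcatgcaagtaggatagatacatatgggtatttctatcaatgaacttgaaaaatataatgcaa

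The Kit stretch that was higher in mESCs holds an OCT match 46 bases before the peak centre and a SOX match 35 bases before it, and an ESRR, a GATA and a RUNX match on the other side. It was the only one of the 66 peaks with an OCT match over its whole 502 bases, where 3.21% of all BGI peaks hold one. The Kit and Pdgfb stretches that were lower in mESCs each hold the AP-1 letters, in Pdgfb at the peak centre. The Pdgfb peak left out above, 28596 bp from the 5′ end and higher in mESCs, also holds the AP-1 letters in its 502 bases. The Pdgfd stretch holds a TEAD match next to a RUNX match, and the Pdgfc stretch lower in mESCs holds 2 TEAD matches. The Pdgfc stretch higher in mESCs holds a C/EBP match at its centre.

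The first comparison asked where the chromatin around the 7 genes differed between mESCs and MEFs. In the BGI samples, 25 of the 66 peaks were higher in mESCs, 36 were lower and 5 were not called (edgeR quasi-likelihood test, Benjamini-Hochberg adjusted p under 0.05 over all peaks of the set). Over all BGI peaks, 40.9% were called higher and 43.2% lower. The genes split by direction. Kit had 6 peaks higher and 1 lower, Pdgfb 5 and 1, and Pdgfa 6 and 4 with 2 not called. Pdgfc was mixed, with 4 higher, 5 lower and 2 not called. Pdgfra had 2 higher, 10 lower and 1 not called, Pdgfrb 2 higher and 11 lower, and Pdgfd 0 higher and 4 lower. The median log2 fold change of the 66 peaks was -0.53, against -0.08 over all BGI peaks.

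The samples of the 2 cell types did not overlap at 26 peaks that were higher in mESCs and 35 that were lower, where 42.9% and 42.2% of all BGI peaks did so. In the Illumina samples, 26 of 66 peaks were higher and 33 lower (edgeR, background 42.1% and 42.4%), and 29 and 32 did not overlap (background 43.7% and 41.8%). By place, 9 of 21 BGI promoter peaks were higher, 7 lower and 5 not called, so that the BGI peaks without a call were all promoter peaks. Calls were also fewer at promoters in general. Of 15126 protein-coding genes, 22.1% had a most-read promoter peak called higher and 44.1% lower. All 45 other BGI peaks were called, 16 higher and 29 lower, and the share over all peaks away from promoters was not computed. On Illumina, 5 promoter peaks, 1 exonic and 1 intronic peak were not called. In bulk libraries a lower count from fewer cells with the site open and from less opening per cell cannot be told apart.

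**Figure D1:**
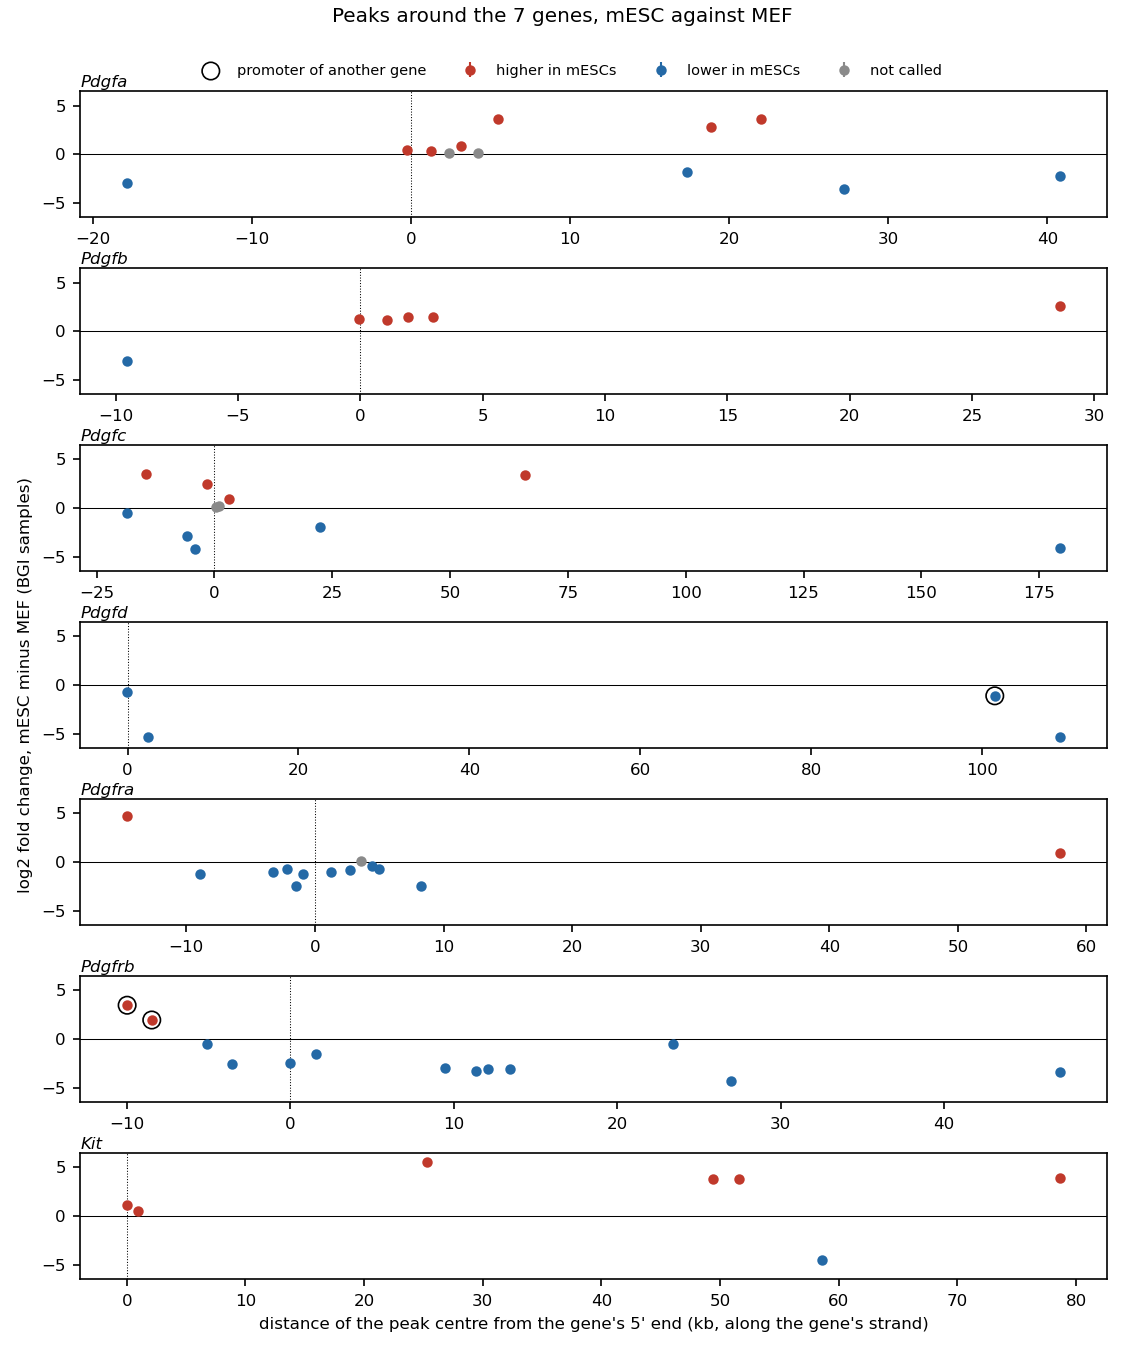
Log2 fold change (mESC minus MEF, BGI samples, 3 libraries each) of the 66 peaks against the distance of the peak centre from the gene's 5′ end in kb, one panel per gene. Red points are called higher in mESCs, blue lower and grey not called, bars are standard errors (mostly smaller than the points), and circles mark peaks within 1 kb of the start of another protein-coding gene. Pdgfd and Pdgfrb lie almost wholly below 0 and Kit almost wholly above it, while the 2 Pdgfc promoter peaks lie at 0.13 and 0.18 with peaks in both directions on either side.

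All peaks of the BGI set are 502 bp wide, and reads in single peaks are set side by side between genes per equal length. The GC content of the 7 promoter peaks compared here ran from 56.6% to 76.5%, and the platforms differed at the peaks richest in GC (given below). The part of GC content in the order of the genes was not tested. Values are counts per 1000000 reads in all peaks of the set (CPM), and are those of the BGI samples on the BGI peak set unless Illumina is named. Among the promoter peaks with the most reads, the order in MEFs was Pdgfrb at 48.5 ± 0.687 (SD, n = 3 for this and the next values), Pdgfd at 25.6 ± 2.36, Pdgfra at 24.7 ± 1.69, Pdgfa at 22.9 ± 1.71, Pdgfc at 14.98 ± 0.297, Kit at 10.7 ± 0.815 and Pdgfb at 4.80 ± 0.655. The samples of Pdgfd, Pdgfra and Pdgfa overlapped with those of their neighbours in this order, and the other neighbours did not overlap. In mESCs the order was Pdgfa at 30.9 ± 1.18, Pdgfra at 27.3 ± 3.51, Kit at 25.0 ± 1.93, Pdgfc at 17.2 ± 2.53, Pdgfd at 16.6 ± 2.75, Pdgfb at 14.0 ± 1.51 and Pdgfrb at 9.44 ± 1.14. Here Kit did not overlap with Pdgfc, and Pdgfb did not overlap with Pdgfrb, whereas each other pair of neighbours did. On Illumina the order in MEFs was Pdgfrb at 44.0 ± 2.23, Pdgfa at 27.9 ± 1.12, Pdgfra at 25.6 ± 1.81, Pdgfd at 22.2 ± 1.75, Pdgfc at 22.1 ± 0.389, Kit at 12 ± 1.91 and Pdgfb at 6.44 ± 0.526, with Pdgfd behind Pdgfa and Pdgfra and overlapping with Pdgfc. In mESCs Pdgfb (16.2 ± 1.23) stood above Pdgfd (15.02 ± 2.53) there. Pdgfrb held the first place in MEFs and the last in mESCs on both platforms.

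**Figure D2:**
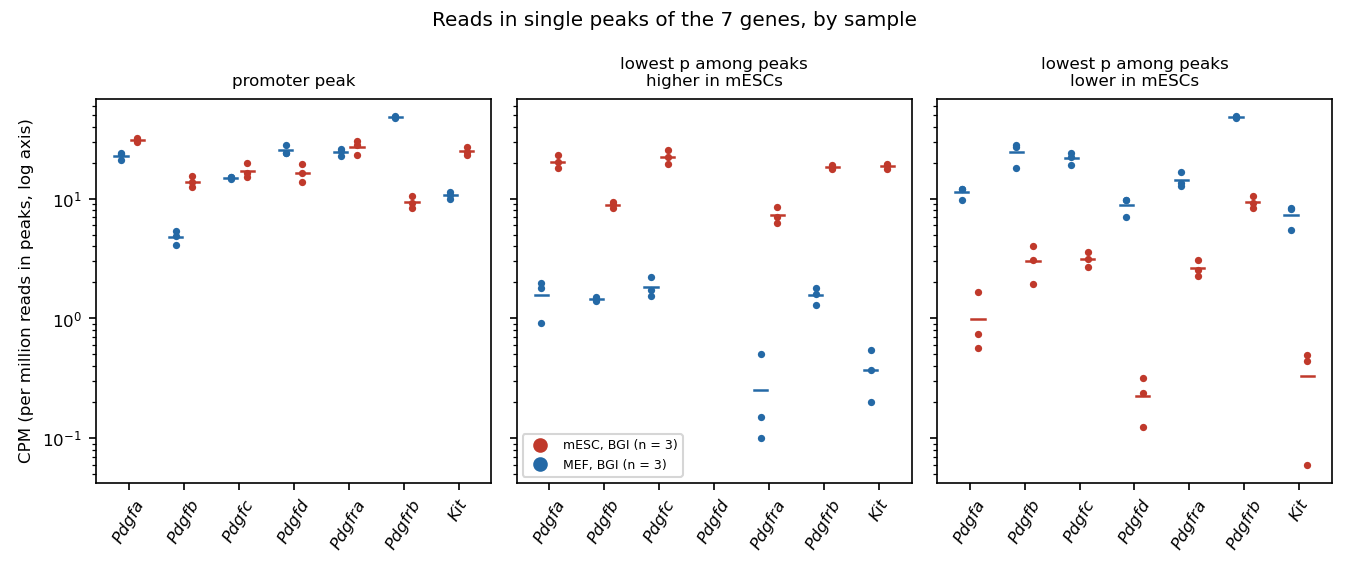
CPM on a log axis in each BGI sample for the promoter peak with the most reads (left), the peak with the lowest p among those higher in mESCs (middle) and among those lower in mESCs (right) of each gene. Points are samples, lines are means of 3, red is mESC and blue is MEF. Pdgfd has no peak higher in mESCs, the promoter peak of Pdgfrb is also its peak with the lowest p, and the groups overlap only for the Pdgfc and Pdgfra promoter peaks.

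Among the ligands, Pdgfa encodes the A chain, which signals through the alpha receptor. Its promoter peak with the most reads (chr5:138995870-138996371), inside the gene over the starts of other Pdgfa transcripts, had 32.0, 31.0 and 29.6 CPM in mESCs 1, 3 and 5 and 24.1, 23.8 and 21.0 CPM in MEFs 1, 2 and 4. The groups did not overlap, and the log2 fold change was 0.36 ± 0.10 (SE; edgeR adjusted p = 0.00391). The other 4 Pdgfa promoter peaks had log2 fold changes of 0.09 to 0.83, and 2 of them were called, both higher. The Illumina set holds a further promoter peak, 655 bp from the 5′ end, with 26.2 ± 1.04 against 7.63 ± 0.184 CPM in MEFs (SD, n = 3; log2 fold change 1.74 ± 0.12), where the BGI reads gave 1.85 ± 0.14. An intronic peak 5441 bp into the gene (chr5:138991679-138992180) held 18.0, 23.2 and 20.2 CPM in mESCs and 0.923, 1.99 and 1.79 CPM in MEFs, 13.1-fold more in mESCs (log2 fold change 3.65 ± 0.22; adjusted p = 9.1e-11). Past the 3′ end, a peak at chr5:138969882-138970383 went the other way, with 0.567, 1.66 and 0.745 CPM in mESCs and 12.1, 9.74 and 12.1 CPM in MEFs (log2 fold change -3.56 ± 0.29). Of the remaining Pdgfa peaks, those at 18825 and 22017 bp from the 5′ end were higher in mESCs (2.75 ± 0.28 and 3.60 ± 0.28), and those at 17343 and 40804 bp and 17860 bp upstream were lower (-1.87 ± 0.27, -2.23 ± 0.27 and -2.93 ± 0.31).

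Pdgfb encodes the B chain, which binds both receptors. All 4 of its promoter peaks were higher in mESCs, with log2 fold changes of 1.13 to 1.47. The one with the most reads (chr15:80012782-80013283) had 15.5, 13.9 and 12.5 CPM in mESCs and 4.94, 5.37 and 4.08 CPM in MEFs (log2 fold change 1.47 ± 0.18; edgeR adjusted p = 4.5e-07). The AP-1 stretch printed above comes from the sole Pdgfb peak that was lower in mESCs, 9527 bp upstream. It held 4.04, 1.95 and 3.11 CPM in mESCs and 28.4, 27.2 and 18.3 CPM in MEFs (log2 fold change -3.10 ± 0.23; adjusted p = 7.66e-10), and MEF 4 was the lowest of the MEFs. This upstream peak alone held more reads in MEFs than the 4 promoter peaks together.

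Pdgfc, whose product is a latent ligand of the alpha receptor, had no called difference at its 2 promoter peaks of the BGI set. The one with the most reads (chr3:81036453-81036954) had 15.1, 19.99 and 16.3 CPM in mESCs and 14.6, 15.2 and 15.1 CPM in MEFs, with overlapping groups (log2 fold change 0.13 ± 0.13; edgeR adjusted p = 0.371). A further promoter peak of the Illumina set, 405 bp before the start, was called higher (7.09 ± 0.138 against 4.03 ± 0.971 CPM; 0.77 ± 0.21, adjusted p = 0.00283), and the BGI reads there gave no call (0.50 ± 0.23, adjusted p = 0.0583). The 5 BGI peaks upstream of the start were all called, in both directions. From the far end, they lay 18540, 14461, 5900, 4188 and 1576 bp from the start and had log2 fold changes of -0.55, 3.54, -2.85, -4.21 and 2.46. The peak 14461 bp upstream held 25.5, 22.4 and 19.6 CPM in mESCs and 2.22, 1.54 and 1.74 CPM in MEFs (SE 0.19; adjusted p = 1.69e-11). The peak 5900 bp upstream held 2.71, 3.13 and 3.60 CPM in mESCs and 22.2, 24.0 and 19.1 CPM in MEFs (SE 0.17; adjusted p = 6.2e-11). The C/EBP and the paired TEAD matches shown above lie in these peaks. Within the gene, an intronic peak 65950 bp from the start was higher in mESCs (16.8 ± 2.45 against 1.47 ± 0.138 CPM, SD, n = 3), and a peak 179454 bp from it, past the 3′ end, was lower (0.534 ± 0.110 against 9.19 ± 1.24 CPM).

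Pdgfd, whose product is a latent ligand of the beta receptor, had 4 peaks, and each was lower in mESCs. The promoter peak (chr9:6168283-6168784) held 16.4, 13.9 and 19.4 CPM in mESCs and 24.1, 28.3 and 24.3 CPM in MEFs, a log2 fold change of -0.70 ± 0.13 (edgeR adjusted p = 6.75e-05). The intronic peaks differed far more. At chr9:6277491-6277992, 109157 bp into the gene, there were 0.315, 0.237 and 0.124 CPM in mESCs and 9.69, 9.69 and 7.12 CPM in MEFs (log2 fold change -5.32 ± 0.35; adjusted p = 2.29e-10). The intronic peak 2441 bp from the start had a log2 fold change of -5.34 ± 0.42. The intronic peak at 101510 bp also lies within 1 kb of the start of Ddi1, a gene inside an intron of Pdgfd, and differed less (-1.11 ± 0.20).

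Pdgfra encodes the alpha receptor, and the peaks around its 5′ end were lower in mESCs. The exception was the promoter peak with the most reads (chr5:75155653-75156154), which lies 3611 bp inside the gene over the annotated start of another protein-coding transcript. It had 23.4, 30.2 and 28.2 CPM in mESCs and 25.0, 22.9 and 26.2 CPM in MEFs, and the groups overlapped (log2 fold change 0.08 ± 0.11; edgeR adjusted p = 0.529). The promoter peaks 953 bp before and 1224 bp after the 5′ end were lower, with 4.99 ± 1.13 against 10.8 ± 0.942 CPM (SD, n = 3; log2 fold change -1.19 ± 0.19) and 6.19 ± 0.582 against 12.4 ± 1.58 CPM (-1.07 ± 0.17). The lowest p among the Pdgfra peaks lower in mESCs belonged to the peak 1469 bp upstream (chr5:75150573-75151074). It held 3.09, 2.25 and 2.55 CPM in mESCs and 13.6, 12.8 and 16.6 CPM in MEFs (log2 fold change -2.51 ± 0.19; adjusted p = 1.58e-09). A peak 14603 bp upstream (chr5:75137439-75137940) went in the opposite direction, with 8.51, 6.27 and 7.08 CPM in mESCs and 0.508, 0.0994 and 0.149 CPM in MEFs (log2 fold change 4.72 ± 0.41; adjusted p = 7.02e-09). The stretch of this peak shown above holds 3 RUNX matches and 1 SOX match.

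Pdgfrb encodes the beta receptor and had the largest difference at a promoter among the 7 genes. Its promoter peak (chromosome 18, 61044857 to 61045358) held 10.7, 8.40 and 9.26 CPM in mESCs and 48.8, 49.0 and 47.7 CPM in MEFs. The MEF samples lay close together, and the mean was 5.14-fold higher in MEFs (log2 fold change -2.43 ± 0.11; edgeR adjusted p = 2.71e-12). The 5 intronic peaks between 1579 and 13416 bp from the start followed it, with log2 fold changes of -1.59 to -3.33. The largest difference was at 26945 bp, where mESCs held 1.45, 1.01 and 0.808 CPM and MEFs 23.1, 24.2 and 14.4 CPM, with MEF 4 again the lowest MEF sample (-4.31 ± 0.26). The 2 peaks of the Pdgfrb window that were higher in mESCs are promoter peaks of its upstream neighbour Cdx1, a homeobox gene of the caudal family. The first, 9989 bp before Pdgfrb, held 18.2, 19.2 and 17.6 CPM in mESCs and 1.62, 1.29 and 1.79 CPM in MEFs (log2 fold change 3.48 ± 0.19; adjusted p = 1.93e-11). Without the peaks at promoters of other protein-coding genes, each of the remaining Pdgfrb peaks of the BGI set was lower in mESCs. The Illumina set holds an exception, an intronic peak 32130 bp from the start that was higher (5.29 ± 0.337 against 1.95 ± 0.300 CPM, SD, n = 3; log2 fold change 1.39 ± 0.25), as it also was with the BGI reads (1.74 ± 0.30). The peak 47106 bp from the start (log2 fold change -3.40 ± 0.26) lies beyond the gene, toward the receptor gene Csf1r.

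Kit was the receptor gene whose promoter was higher in mESCs. Its promoter peak (chr5:75574691-75575192) held 24.8, 27.0 and 23.2 CPM in mESCs and 9.88, 10.8 and 11.5 CPM in MEFs, 2.33-fold more in mESCs (log2 fold change 1.15 ± 0.12; edgeR adjusted p = 1.19e-07). Another promoter peak, 913 bp inside the gene, was also higher (17.1 ± 0.879 against 11.4 ± 1.65 CPM, SD, n = 3; log2 fold change 0.52 ± 0.14). The largest rise among the 66 peaks was in a Kit intron 25287 bp from the start (chr5:75599953-75600454), the peak with the OCT, SOX and ESRR matches. It held 19.7, 17.6 and 19.2 CPM in mESCs and 0.369, 0.199 and 0.548 CPM in MEFs, 50.6-fold more in mESCs (log2 fold change 5.57 ± 0.25; adjusted p = 2.61e-12). Intronic peaks at 49384 and 51609 bp and an exonic peak at 78653 bp were higher as well, with log2 fold changes of 3.76 ± 0.28, 3.83 ± 0.33 and 3.86 ± 0.34. The intronic peak at 58559 bp (chr5:75633225-75633726) was the exception, with 0.441, 0.0591 and 0.497 CPM in mESCs and 8.36, 8.25 and 5.53 CPM in MEFs (log2 fold change -4.53 ± 0.41; adjusted p = 1.11e-08). The AP-1 letters in the Kit stretch that was lower in mESCs lie in that peak.

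The authors' own peak calls, made in each sample alone with MACS2, were used as a further reading of the same libraries. At the Kit intron peak 25287 bp from the start, the highest summit score (−log10 p) was 106, 101 and 112 in the BGI mESC samples 1, 3 and 5, and 62.5, 114 and 87.3 in the Illumina ones, while no summit was called in any of the 6 MEF samples. At the Pdgfrb promoter the score was 362 to 377 in BGI MEFs and 36.5 to 42.8 in BGI mESCs. Over the whole genome, BGI MEF samples (down-sampled by the authors to 60 M reads) had 116121 to 121339 summits whose −log10 p reached 10, and BGI mESC samples (45 M reads) 124900 to 129705, so counts are not matched in depth between the cell types. Those in the Kit window numbered 3 to 4 in MEF samples and 15 to 16 in mESC samples on BGI. MEF samples had 23 to 31 of them in the Pdgfrb window, where mESC samples had 15 to 17, and 4 to 5 in the Pdgfb window, where mESC samples had 8 to 13. Pdgfc also had fewer in MEFs (11 to 13) than in mESCs (15 to 19), and Pdgfd more (6 to 9 against 3 to 4). These 5 genes had no overlap between the cell types on Illumina either. For Pdgfa the cell types overlapped on both platforms (16 to 19 and 16 to 20 on BGI). Pdgfra overlapped on BGI (15 to 22 and 16 to 18) and did not on Illumina (18 to 24 and 12 to 16).

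Reads were then summed over all BGI peaks of each gene, as a measure of the total accessibility of its window. The sums depend on how many peaks were called, and are compared between cell types within 1 gene and set of peaks only. Kit summed to 83.5, 87.5 and 83.0 CPM in mESCs and 31.7, 30.8 and 32.0 CPM in MEFs over 7 peaks, 2.69-fold more in mESCs. Pdgfrb summed to 59.6, 59.4 and 62.6 CPM in mESCs and 169, 171 and 154 CPM in MEFs over 13 peaks, 2.72-fold more in MEFs. These include the promoter peaks of Cdx1, and without them, a sum added after its values were seen, the 11 other peaks held 35.3 ± 2.75 against 161.5 ± 10.3 CPM (SD, n = 3), 4.58-fold more in MEFs. Pdgfd was 2.39-fold higher in MEFs (20.8 ± 2.45 against 49.7 ± 5.01 CPM, SD, n = 3) and Pdgfra 1.45-fold (93.2 ± 0.971 against 135 ± 10.8 CPM). Pdgfa was 1.28-fold higher in mESCs (136 ± 5.87 against 106 ± 4.43 CPM) and Pdgfb 1.24-fold (49.9 ± 4.11 against 40.3 ± 5.36 CPM). The Pdgfb sum depends on its upstream peak, and over the 4 peaks of the gene body it was 2.67-fold higher in mESCs (37.9 ± 2.72 against 14.2 ± 0.830 CPM). The groups did not overlap for these 6 genes, and the two-sided exact permutation p was 0.1, the smallest that 3 against 3 allows. Most single BGI peaks did not overlap either (42.9% higher and 42.2% lower in mESCs), and the share for sums over other genes was not computed. For Pdgfc the sums overlapped (111 ± 7.97 and 115 ± 12.5 CPM; exact permutation p = 0.7), although 9 of its 11 peaks were called. Over the 5 peaks of the gene body they also overlapped on BGI (exact permutation p = 0.2), but not on Illumina, where mESCs held 62.0 to 67.5 CPM and MEFs 48.1 to 58.6 CPM (exact permutation p = 0.1).

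**Figure D3:**
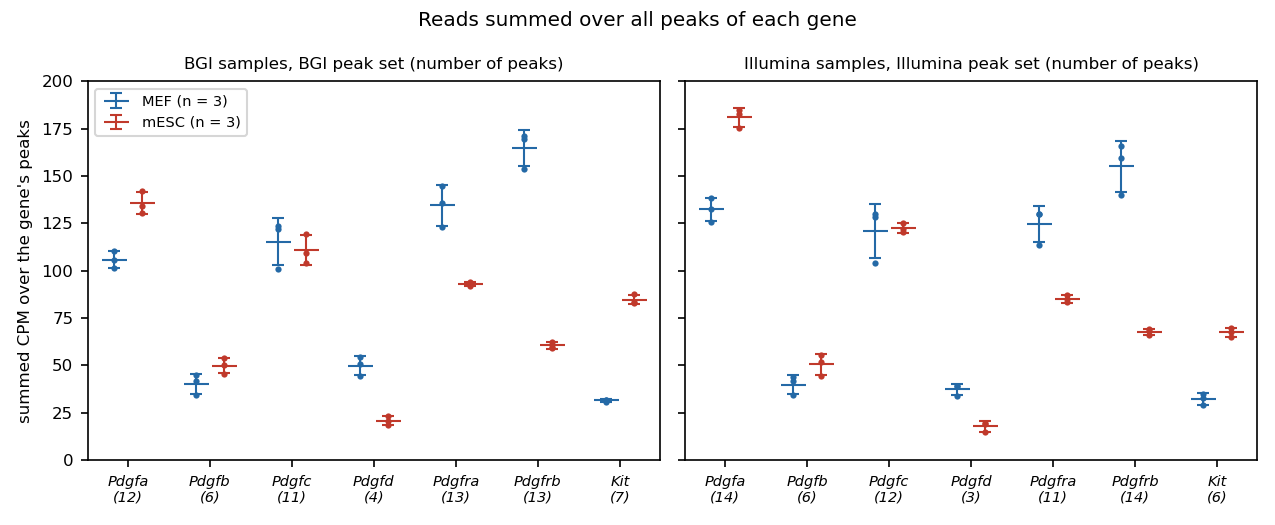
CPM summed over all peaks of each gene, for the BGI samples on the BGI peak set (left) and the Illumina samples on the Illumina peak set (right), with the number of peaks in brackets. Points are samples, horizontal marks are means and bars are SD (n = 3). Kit, Pdgfa and Pdgfb are higher in mESCs and Pdgfd, Pdgfra and Pdgfrb in MEFs on both platforms, and the Pdgfc groups overlap.

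The promoter peaks of other genes of the pathway were listed by role. Among proteases and a co-receptor of PDGFs, 4 of 4 genes had a promoter peak that was lower in mESCs, where 22.1% of 15126 protein-coding genes with a promoter peak were called higher and 44.1% lower. These were Plat, whose product tissue plasminogen activator cleaves PDGF-C (21.4 ± 1.09 against 36.5 ± 1.02 CPM in MEFs, SD, n = 3; log2 fold change -0.84 ± 0.10), Plau, whose product urokinase cleaves PDGF-D (-0.94 ± 0.15), the proprotein convertase gene Furin (-1.22 ± 0.16) and the co-receptor gene Nrp1 (-1.73 ± 0.19). Of 5 related receptor genes, 2 were lower and 0 higher in mESCs. Csf1r, the receptor of macrophage colony-stimulating factor and the neighbour of Pdgfrb, stood at 2.13 ± 0.977 CPM in mESCs against 15.9 ± 1.38 CPM in MEFs (log2 fold change -2.97 ± 0.25; edgeR adjusted p = 4.14e-09), and Flt1 changed by -0.76 ± 0.16. Of 4 ligand genes of these receptors, Flt3l was higher (36.8 ± 3.25 against 3.996 ± 0.633 CPM; 3.13 ± 0.14) and Csf1 lower (-1.27 ± 0.11), while Kitl, which encodes the Kit ligand, was not called (21.3 ± 0.410 and 18.7 ± 2.86 CPM; 0.13 ± 0.12).

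Genes that act downstream of the receptors were read at the same kind of peak. Of 16 genes of signal transducers, 1 was higher, 5 were lower and 10 were not called, with a median log2 fold change of -0.11 against -0.18 over all protein-coding promoter peaks. Mapk3, which encodes the kinase ERK1, was the one that was higher (0.65 ± 0.14), and the adaptor gene Gab1 was the lowest (-0.50 ± 0.08). These counts stand against the 22.1% higher and 44.1% lower of all protein-coding promoter peaks. On Illumina 1 was higher, 8 lower and 7 not called (22.2% and 46.0% over the 14528 genes with a matched peak there), with Ptpn11, Plcg1 and Crk as the further genes that were lower. Of 7 genes of inhibitors of receptor signalling, Spry4 was higher (0.46 ± 0.13), 4 were lower and 2 were not called, and Socs1 was the lowest of these (-0.68 ± 0.09).

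**Figure D4:**
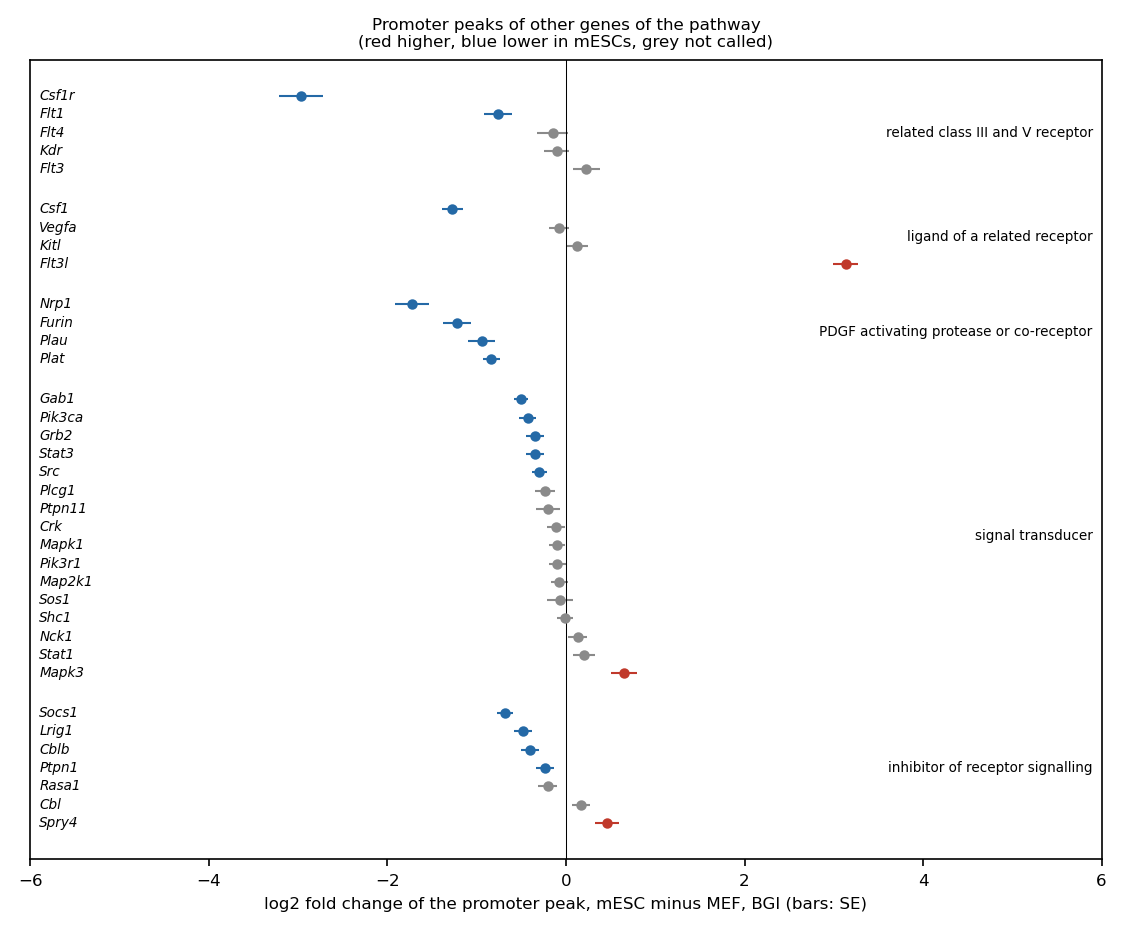
Log2 fold change (mESC minus MEF, BGI, bars are SE) of the promoter peak with the most reads for 36 other genes of the pathway, grouped by role. Red is called higher, blue lower and grey not called. The 4 genes of proteases and a co-receptor lie left of 0, Csf1r and Flt3l lie farthest from 0, and the signal transducers lie between -0.50 and 0.65.

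Markers of other cell types were read in the same way, and their counts stand against the same 22.1% higher and 44.1% lower. Of 5 mural cell markers, 4 had a promoter peak lower in mESCs, among them Rgs5 (1.57 ± 0.624 against 7.03 ± 1.18 CPM in MEFs) and Cspg4 (5.79 ± 0.553 against 16.6 ± 0.523 CPM). The fifth, Notch3, was not called (log2 fold change 0.08 ± 0.14). The summed CPM of the mural markers was 27.9 to 34.6 in mESCs and 50.8 to 61.8 in MEFs, the same direction as Pdgfrb. Their part in the Pdgfrb difference was not tested. Of 5 endothelial markers, Cdh5 and Tie1 had no promoter peak and the other 3 were not called, with a summed CPM of 27.6 to 32.2 in mESCs and 28.7 to 30.9 in MEFs. Of 5 mast cell and melanocyte markers, Tyr, Fcer1a and Cpa3 had no promoter peak, Dct was higher (4.86 ± 0.914 against 0.962 ± 0.324 CPM) and Mitf lower in mESCs, and the summed CPM was 28.6 to 31.6 and 38.1 to 41.3. Of 5 blood markers, Ptprc, Spi1 and Itgam had no promoter peak, Csf1r was lower and Tal1 higher in mESCs, and the summed CPM was 12 to 13.1 and 20.1 to 24.7. Of 5 primitive endoderm markers, 3 were higher in mESCs, among them Sox17 (18.6 ± 0.650 against 3.14 ± 0.299 CPM), Gata6 was lower and Sox7 was not called (it was lower on Illumina), with a summed CPM of 74.4 to 81.7 and 56.8 to 63.9. The part of these cell types in the values of Kit and Pdgfra was not tested.

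Over the 502 bases of each peak, the motifs occurred in the 7 genes' peaks at the following counts. AP-1 was in 8 of the 36 peaks lower in mESCs, where 35.6% of all peaks lower in mESCs held it, and in 3 of the 25 higher peaks (18.6% of all higher peaks). TEAD was in 12 of the 36 (37.4%) and 4 of the 25 (29.0%), and RUNX in 10 (34.1%) and 4 (31.8%). ESRR was in 6 of the 25 peaks higher in mESCs (13.6% of all higher peaks) and 3 of the 36 lower ones (6.69%). SOX was in 8 of the 25 (28.6%) and 11 of the 36 (21.3%). SP was in 11 of the 25 (28.1%) and 9 of the 36 (26.8%), and KLF in 5 (29.4%) and 8 (20.7%). GATA was in 5 (17.1%) and 6 (20.6%), and C/EBP in 5 (16.4%) and 4 (19.1%). These counts are small and were given no test. The median GC content of the 25 higher peaks was 54.8%, of the 36 lower ones 53.6%, and of the 5 without a call 64.3%, where the medians over all BGI peaks with these calls were 51.0%, 49.2% and 55.8%.

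For each receptor gene, the protein-coding promoters with the most similar values over the 6 BGI samples were found by the Euclidean distance of log2 CPM (prior count 2). Nearest to Pdgfra were Pak4 (distance 0.128), Asb6 (0.149) and Klhl20 (0.153), whose levels were also alike in both cell types. Nearest to Pdgfrb were Trim16 (0.361; log2 fold change -2.33), Emilin1 (0.514; -2.38) and Emp1 (0.596; -2.01). Nearest to Kit were Ybx2 (0.168; 1.16), Syt9 (0.258; 1.22) and Mecom (0.262; 1.09).

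The next comparison asked whether the difference between the cell types was the same on the other sequencer, which read the same 6 libraries and is a technical repeat. Of the 66 BGI peaks, 55 had an Illumina peak that overlapped at least 50% of the width, and 54 of these had the same call, 21 higher, 28 lower and 5 not called, with 0 in opposite directions. The one that differed was an exonic Pdgfrb peak 23393 bp from the start, whose log2 fold change was -0.50 ± 0.19 in the BGI samples (edgeR adjusted p = 0.0225) but -0.24 ± 0.20 in the Illumina samples (adjusted p = 0.265). The Pdgfrb promoter had -2.38 ± 0.11 on Illumina, that of Kit 1.22 ± 0.12, that of Pdgfb 1.28 ± 0.15 and that of Pdgfd -0.61 ± 0.13. The Kit intron peak with the OCT match had no Illumina peak over it. Counted on the BGI peak set, the Illumina reads there were 17.6 ± 0.753 CPM in mESCs against 0.394 ± 0.181 CPM in MEFs (SD, n = 3; log2 fold change 5.39 ± 0.25; adjusted p = 2.65e-12). For all 11 BGI peaks without an Illumina partner, 4 higher and 7 lower, the Illumina reads gave the same call. In the other direction, 11 Illumina peaks had no BGI partner, of which 5 were higher, 5 lower and 1 not called. The BGI reads gave the same call at 10 of them, among them an exonic Pdgfb peak that was higher (2.77 ± 0.33 on Illumina and 2.65 ± 0.33 from the BGI reads), and the exception was the Pdgfc promoter peak 405 bp before the start.

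**Figure D5:**
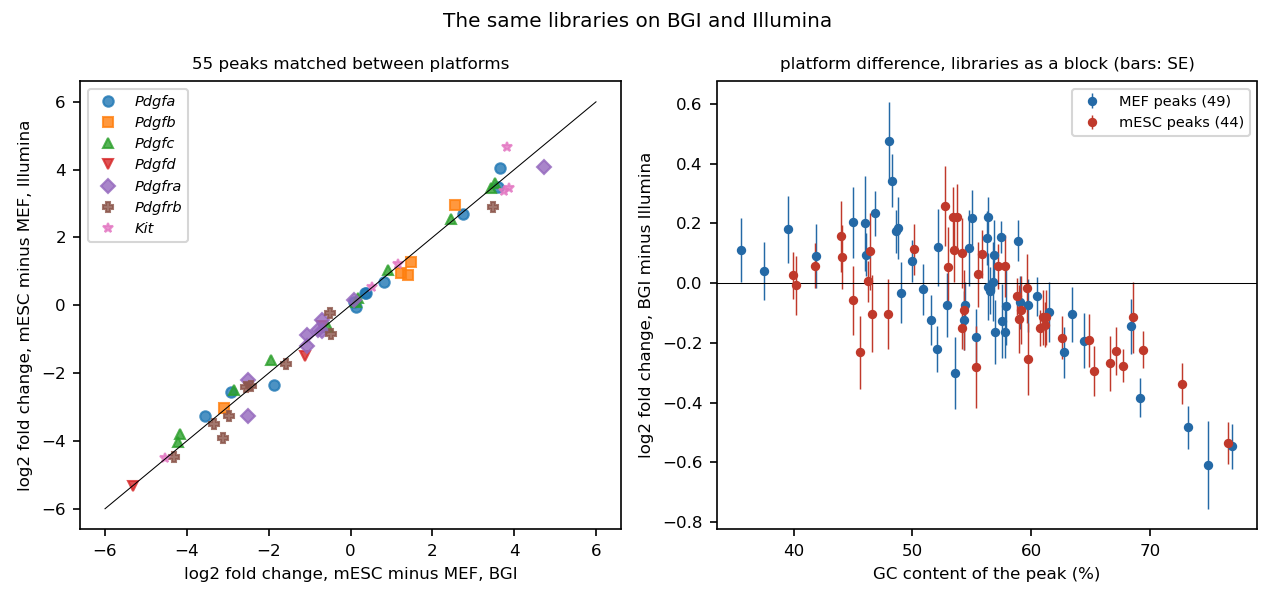
Left, log2 fold change (mESC minus MEF) of the 55 matched peaks on BGI and on Illumina, with a marker per gene and the line of equality. Right, log2 fold change of BGI minus Illumina against the GC content of the peak, with libraries as a block (bars are SE), for the 49 MEF peaks (blue) and 44 mESC peaks (red) of the 7 genes. The matched peaks lie along the line, and the peaks of highest GC content lie lowest on the right.

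No peak around the 7 genes had a called difference of the cell type contrast between the platforms (edgeR interaction of cell type and platform on 12 samples, 0 of 66, background 0.0% of 91354 peaks; 3 had an unadjusted p under 0.05). With the library as a block it was 0 of 66 again (background 0.386%; 10 at an unadjusted p under 0.05, lowest adjusted p = 0.0974, at a Pdgfa promoter peak 2401 bp from the 5′ end). The absence of a call does not show that the platforms gave the same contrast. At that Pdgfa peak the mESC-to-MEF difference on BGI exceeded the one on Illumina by 0.32 ± 0.10 on the log2 scale.

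The platforms were also compared directly, within each cell type and on the peaks called from both platforms. In MEFs, 3 of 49 peaks were lower on BGI and 0 higher without pairing (edgeR, background 4.06%). With the library number as a block, 5 were higher (background 13.9%) and 6 lower (background 15.3%). In mESCs, 1 of 44 peaks was lower on BGI and 0 higher without pairing (background 3.23%), and with the block 0 were higher (background 5.78%) and 8 lower (background 15.6%). The call in mESCs and 1 of the 3 in MEFs were the Pdgfc promoter peak, the richest in GC at 76.6% and 76.9%. It was lower on BGI by a log2 fold change of -0.53 ± 0.07 in mESCs and -0.55 ± 0.07 in MEFs with the block (adjusted p = 1.46e-11 and 1.1e-08). The other 2 were Pdgfa promoter peaks with 73.2% and 69.2% GC (-0.48 ± 0.07 and -0.38 ± 0.07 with the block).

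With a further offset for GC content, the Pdgfc promoter had -0.09 ± 0.07 in mESCs and -0.07 ± 0.07 in MEFs, and no mESC peak was called. Over all mESC peaks that fit called 4.18% higher and 4.7% lower. In MEFs, 2 peaks were higher and 2 lower on BGI with that offset (background 6.11% and 6.76%): the promoter peaks of Pdgfrb (0.15 ± 0.05) and Pdgfd (0.19 ± 0.06), and Pdgfra promoter peaks 2240 and 4700 bp from the 5′ end (-0.37 ± 0.12 and -0.32 ± 0.08). Without pairing, the 3 calls in MEFs were lost when MEF library 1 or 2 was left out (0 of 49 each), and the call in mESCs when library 1 or 5 was (0 of 44 each). The platform differences at the promoters of Pdgfb (-0.23 ± 0.08) and Kit (-0.22 ± 0.06) in mESCs, with the block, were smaller than those between the cell types at the same sites. This did not hold at the Pdgfc promoter, where the cell types differed by 0.13 ± 0.13 on BGI and 0.10 ± 0.11 on Illumina. Without the GC offset the platforms differed there by -0.53 in mESCs and -0.55 in MEFs. At the Pdgfa promoter peak with 73.2% GC they differed by -0.48 in MEFs, against 0.13 ± 0.12 between the cell types at the overlapping BGI peak. At the one with 69.2% GC the values were -0.38 and 0.36 ± 0.10.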

How the data were processed

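Omni-ATAC-seq libraries from 3 MEF and 3 mESC samples, each read on both platforms, were analysed from the deposited files. Per the study's methods, the authors trimmed adapters, aligned reads to GRCm38 (mm10) with Bowtie2, removed duplicates and mitochondrial reads, down-sampled to 60 M (MEF) and 45 M (mESC) reads, called the peaks of every sample separately with MACS2 and counted reads per peak with subread. The deposited tables hold raw counts per peak for 4 peak sets, without normalization, and every per-sample column was used. Columns without a platform name were taken as Illumina; the ratio of the 2 columns followed the ratio of the platforms' fold enrichments at summits in 6 of 6 libraries (Spearman rho 0.757 to 0.799 across peaks). The deposited peak calls give, per the authors' MACS2 run, each summit's −log10 p-value and its fold enrichment over background, a ratio used only for that check. The reproducible peak lists of the authors hold positions alone and were only counted.

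CPM were computed per 1000000 reads in a peak set. Tests were made with edgeR 4.0.16 (R 4.3.3; quasi-likelihood F test, two-sided, TMM, default expression filter, Benjamini-Hochberg over all peaks of the set), with DESeq2 1.42.0 as an alternative, after the scripts were tested on simulated data. Named peaks were, for each gene, the promoter peak with the highest mean count and the called peaks with the lowest p in each direction, and genes of other lists were read at their promoter peak with the highest mean count. Other peaks and genes named were chosen after their values were seen. The 7 genes and the lists were chosen with earlier results of these data known. The study calls the libraries of a cell type biological replicates, and the 3 per group limit precision. The same libraries were read on both platforms, so library numbers pair the samples. With group means removed, the correlation of same-numbered samples was 0.618 to 0.837 (MEFs) and 0.515 to 0.724 (mESCs), and that of others -0.676 to 0.293 and -0.51 to -0.115. Sequences were read from the RefSeq copy of GRCm38.p6.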

Additional observations from a re-analysis of the deposited data

How the results depend on the processing

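The 61 calls around the 7 genes on BGI and the 59 on Illumina were within 1.5 times of these numbers under each alternative except 1: with gene bodies alone, 36 of 41 peaks were called on BGI and 35 of 42 on Illumina, since fewer peaks were counted. DESeq2 gave 61 and 59, a minimum log2 fold change of 1 gave 47 and 43, and leaving out 1 library gave 58 to 60 and 57 to 59. In the main fit, 40.9% of all BGI peaks were called higher and 43.2% lower (42.1% and 42.4% on Illumina). The shares of all peaks called under the alternatives were not compared, so these counts show nothing particular to the 7 genes. Fixing library sizes at the down-sampled depths moved the median log2 fold change of all BGI peaks from -0.08 to 0.06 and that of all Illumina peaks from -0.03 to 0.09. Under that setting the Pdgfra promoter peak on Illumina was called (0.29, edgeR adjusted p = 0.0208; 0.16 and 0.13 with TMM) and the log2 ratio of the Pdgfc sums on BGI turned from -0.05 to 0.022. That ratio was 0.24 over the gene body alone, and on Illumina it turned from 0.03 to -0.075 without MEF 4 and was 0.082 without MEF 1. The Pdgfc promoter peak on Illumina turned from 0.10 to -0.027 without mESC 3. With gene bodies alone, the log2 ratio of the Pdgfb sums was 1.41 on BGI (0.31 in the main result) and 1.27 on Illumina (0.35). That of Pdgfrb was -2.35 (-1.44) and -2.10 (-1.19), and that of Pdgfa 0.63 (0.36) and 0.66 (0.45). With 50 kb on both sides they were 1.17 and 1.21 for Pdgfb and -1.08 and -0.85 for Pdgfrb. The SD between replicates of the Pdgfc ratio was 0.192 on BGI and 0.18 on Illumina, and the cause was not tested.

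Between platforms in MEFs, 3 calls became 11 with the replicate block and 0 to 4 when 1 library was left out. In mESCs, 1 call became 8 with the replicate block, 0 with the block and the GC offset, and 0 to 1 when 1 library was left out. DESeq2 gave an adjusted p for 38 of 49 and 24 of 44 of these peaks. The replicate block left the interaction at 0 calls. No paired analysis was possible for mESC against MEF because the cell types share 1 library number, which names different cells.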

Other observations

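The reproducible peak lists of the authors, 1 for each cell type on each platform, gave a further count of sites around the 7 genes. The MEF lists held 45 peaks (BGI) and 45 (Illumina), and the mESC lists 37 and 40, of 58813, 55071, 62270 and 60956 listed in all. Kit had 3 listed peaks in MEFs on either platform and 6 (BGI) and 5 (Illumina) in mESCs, and Pdgfb had 1 and 2 in MEFs and 5 and 5 in mESCs. Pdgfrb had 11 and 11 in MEFs and 5 and 6 in mESCs, Pdgfra 11 and 10 against 5 and 5, and Pdgfd 4 and 3 against 1 and 1. Pdgfa had 8 and 9 in both cell types, and Pdgfc 7 and 7 in MEFs and 7 and 9 in mESCs. With 1 list per group, no test was possible.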
